A study of Mus musculus with 4 samples.

Results

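The cytosolic ribosomal protein genes were taken as all genes whose symbol names a protein of the large subunit (Rpl, with the stalk proteins Rplp) or of the small subunit (Rps, with Rpsa). The rule used symbols only and no measured value, and it found 86 of the 30731 genes listed for every library. There were 52 symbols of the large subunit and 34 of the small subunit. Of the 86, 77 were canonical ribosomal proteins, and 9 were paralogs or symbols of another kind (Rpl3l, Rpl7l1, Rpl10l, Rpl22l1, Rpl36al, Rpl39l, Rps27l, Rps27rt and Rps19bp1). Rps19bp1 encodes a partner of RPS19 and met the rule by its spelling alone.

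Total RNA was sequenced from innate lymphoid cells of mice, in 4 libraries of 3 kinds of wild-type cell. The NK library came from spleen of pooled C57BL/6 mice aged 8 to 12 weeks, with no culture cytokine stated for it. The ILC2 library came from bone marrow of C57BL/6 mice, also pooled and aged 8 to 12 weeks, and these cells were grown with the cytokines IL-33, IL-25, IL-2 and IL-7, each at 10 ng/ml. The pair of MNK-3 libraries came from a cell line that stands for group 3 innate lymphoid cells, derived from NIH-Swiss fetal thymocytes of day 15 and grown in IL-7 and IL-15 at 10 ng/ml. Cell type coincides with tissue and culture in every comparison, and in those with MNK-3 also with strain and the gene set used for counting, and these cannot be told apart. NK and ILC2 had 1 library each, and MNK-3 is a single line.

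Ribosomal proteins coat and stabilise the ribosomal RNAs, and each canonical protein is present in about a single copy per ribosome apart from the stalk proteins. Their mRNAs begin with a run of pyrimidines at the 5′ end, the 5′ terminal oligopyrimidine (TOP) tract, through which mTOR signalling and LARP1 control their translation as a group. In lymphocytes, ribosome production rises when a resting cell is activated and begins to grow and divide.

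The tract is printed first because the rule did not use it. The lines were picked from members with an annotated tract, which are a minority of the family by the count below. Each line gives the first 24 bases of an annotated transcript, from GENCODE M21 on GRCm38, with the tract in capitals.
Rpl4 (chr9:64173375, plus strand): CTTTTCCTgtgggagcagccgggt
Rpl32 (chr6:115808747, minus strand): CTTCCTTCTTCCTCggcgctgcct
Rpl29 (chr9:106429538, plus strand): CTCTTCCggtctccggcgctgcgg
Rps2 (chr17:24720110, plus strand): CTTCTTCTTCTTCgggagaacacg
Rps3 (chr7:99483651, minus strand): CCTTTCCTTTCagcggcgcgcggc
Rps24 (chr14:24490718, plus strand): CTCTTTTCCTCCTCTCCagctccg
Rps27 (chr3:90213648, minus strand): CCTTTCCggcggtgacgacctccc
A tract was counted where a transcript began with C and at least 4 further bases that were each C or T, on the transcribed strand. By this count 23 of the 86 members (26.7%) had an annotated transcript that starts with a tract, against 5.14% of 21781 protein-coding genes. Of the 78 mitochondrial ribosomal protein genes 5 had one, as did 7 of 35 initiation factors and 8 of 19 other genes listed as TOP. In the RefSeq promoter table, which held 66 of the 86 members on GRCm38.p6, 14 (21.2%) had a tract exactly at the annotated start, against 2.72% of 16499 protein-coding genes. Rpl24 (ggaaacagactgggcgctcggaag) is an example of a member whose annotated start carries no such letters. The counts describe annotated starts, which may lie away from the start used in these cells.

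Reads in the shared genes numbered 4637812 for NK and 9298162 for ILC2, and for replicates 1 and 2 of MNK-3 they numbered 25617762 and 15177345. Levels are given as CPM, the read count of a gene scaled to a common size of library. MNK-3 replicate 1 stood apart: 75.8% of its reads lay in no gene, against 23.1% to 47.1% in the other libraries, and 95.6% of the shared genes had a read, against 69.6% to 76.0%. Marker genes matched the labels for the most part. Summed over 5 genes each, NK markers reached 4694 CPM in NK and 16.5 to 76.4 CPM elsewhere, ILC2 markers 5490 CPM in ILC2 and 95.01 to 218 CPM elsewhere, and ILC3 markers 1683 and 2465 CPM in MNK-3 and 93.1 to 217 CPM elsewhere. The exception was Klrg1, at 89.7 CPM in NK and 20.8 CPM in ILC2. Ncr1 and Il23r had no read in ILC2, Il5 and Il23r had none in NK, and Il1rl1, Il5 and Il13 had none in MNK-3 replicate 2. Summed markers of other cells were 66.3 to 168 CPM for B cells, mostly Ighm, 11.3 to 100.3 CPM for T cells, 1.45 to 24.2 CPM for myeloid cells and 0.753 to 6.99 CPM for erythroid cells, with the T, myeloid and erythroid sums highest in MNK-3 replicate 1. Their part in the results was not tested.

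The family took its largest share of gene reads in ILC2 and its smallest in MNK-3. Its 86 genes held 2.03% of gene reads in NK (95% exact Clopper-Pearson interval 2.01% to 2.04%), 3.13% in ILC2 (3.12% to 3.14%), and 1.13% (1.12% to 1.13%) and 1.46% (1.46% to 1.47%) in replicates 1 and 2 of MNK-3. The intervals do not overlap, but each covers counting error within a single library only, and not variation between libraries. They also take each read as a separate molecule, though reads were not tagged as molecules. The share in ILC2 was 1.54 times that in NK, and 2.78 and 2.14 times those in the MNK-3 libraries. The share in NK was 1.80 and 1.38 times those in MNK-3, and the MNK-3 libraries differed from each other by 1.30 times. The difference between NK and MNK-3 replicate 2 was therefore little larger than that between the MNK-3 libraries, while the difference between ILC2 and either MNK-3 library was larger. In bulk RNA, fewer cells of a type and less RNA per cell cannot be told apart.

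**Figure D1:**
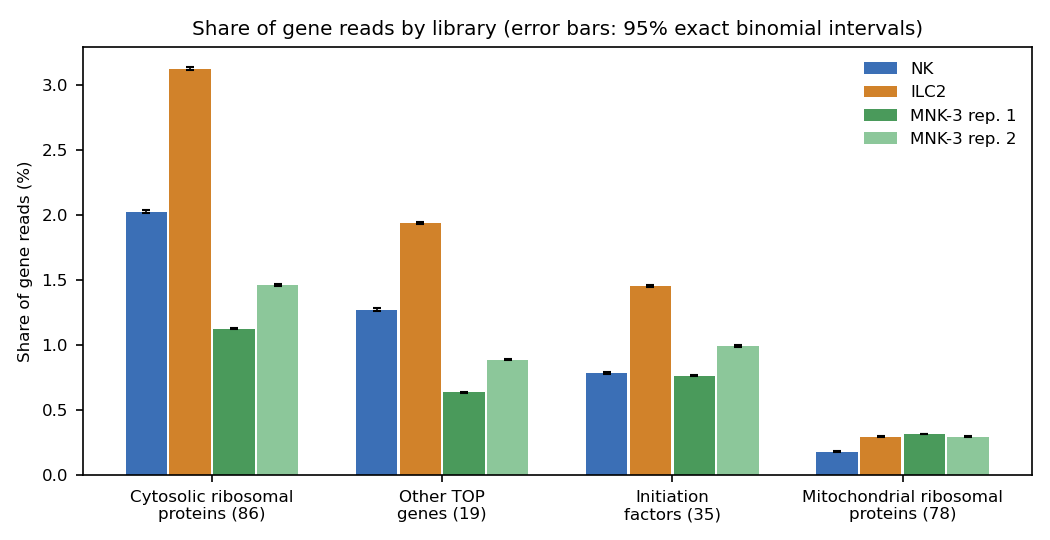
Share of reads in shared genes (vertical axis, percent) taken by 4 groups of translation genes, in NK, ILC2 and both MNK-3 libraries; error bars are 95% exact binomial intervals of counting error. The cytosolic ribosomal protein genes go from 3.13% in ILC2 down to 1.13% in MNK-3 replicate 1, whereas the mitochondrial ribosomal protein genes are lowest in NK (0.178%).

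The order held for most members. ILC2 had the highest CPM of the 4 libraries for 76 of the 86 genes, which is the case for 9.22% of all genes tested. Both MNK-3 libraries lay below ILC2 for 80 members (12.8% of all genes) and below NK for 71 (13.8% of all genes), and ILC2 lay above NK for 78 (31.6% of all genes). The members outside the MNK-3 and ILC2 order were Rpl10l, Rpl24, Rpl39l, Rpl3l, Rps19bp1 and Rps27rt, of which only Rpl24 is a canonical ribosomal protein. MNK-3 replicate 1 lay below replicate 2 for 75 members (19.5% of all genes), so the gap between these libraries also ran through the family as a whole.

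**Figure D2:**
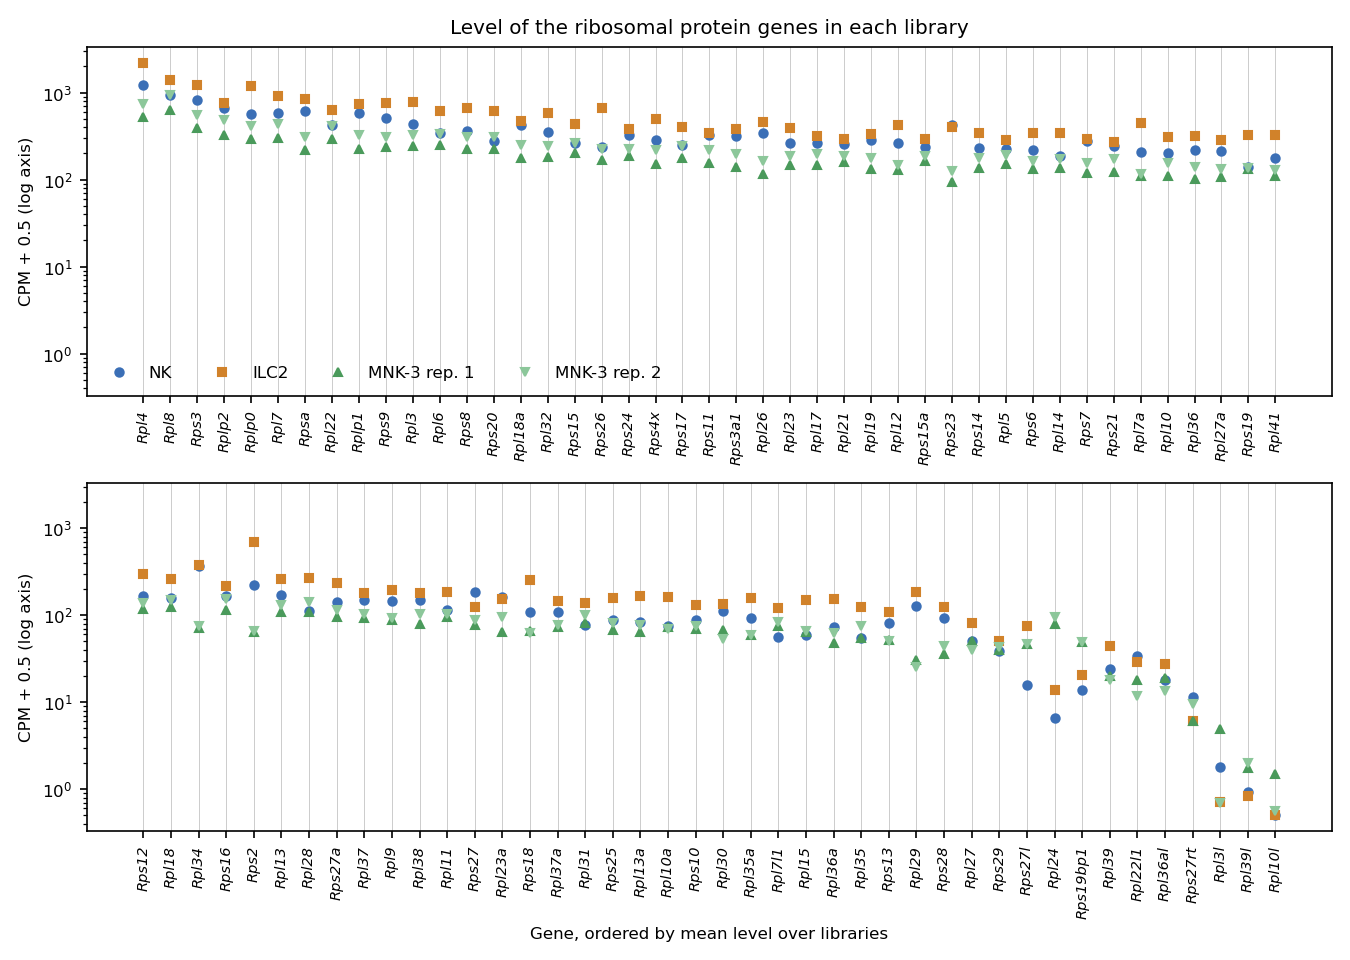
Level of 85 of the 86 genes in each library as CPM + 0.5 on a log axis, genes ordered by their mean level. ILC2 is the highest point for 75 of the genes plotted, and the paralogs Rpl3l, Rpl39l and Rpl10l lie at the bottom with a few CPM or less.

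The subunits kept their proportion. Genes of the large subunit took 60.0% of all ribosomal protein reads in NK (exact interval 59.7% to 60.3%), 59.7% in ILC2 (59.5% to 59.9%), and 60.3% (60.2% to 60.5%) and 60.6% (60.3% to 60.8%) in replicates 1 and 2 of MNK-3. The spread over cell types was under 1 percentage point, while the family's own share of gene reads differed by up to 2.78 times.

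The members with the most reads were of the large subunit. Rpl4 (chr9:64173375-64178666, plus strand), which lines the peptide exit tunnel, had 1218 CPM in NK and 2194 CPM in ILC2, against 519 and 739 CPM in the MNK-3 pair. Rpl8, near the peptidyl transferase centre, had 934 CPM in NK and 1408 CPM in ILC2, against 637 and 926 CPM in the MNK-3 pair. MNK-3 replicate 2 thus reached the NK level for Rpl8 and stayed well below it for Rpl4. The small-subunit member with the most reads was Rps3, at the mRNA entry site, with 831 CPM in NK and 1217 CPM in ILC2, against 393 and 552 CPM in the MNK-3 pair. Per kilobase of exon, the leading gene in NK and ILC2 was Rplp1, at 1154 and 1465 CPM per kb, and in MNK-3 it was Rpl8, at 468 and 681 CPM per kb. Lowest per kilobase of the canonical members were Rpl24 in NK and ILC2, at 5.86 and 12.8 CPM per kb, and Rpl39 in MNK-3, at 13.6 and 12.1 CPM per kb. Exon length was merged over all annotated transcripts of a gene. The share of 38-base coding words found in no other gene, described below, was 70.5% in Rpl4, 89.8% in Rpl8 and 86.3% in Rps3. It was 30.2% in Rplp1, 0.686% in Rpl24 and 0% in Rpl39. The ranks are therefore of counted reads and need not be ranks of mRNA.

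The stalk, which recruits the elongation factors, is built from Rplp0, Rplp1 and Rplp2. Rplp0, the base of the stalk, had 565 CPM in NK and 1174 CPM in ILC2, against 290 and 411 CPM in the MNK-3 pair. Rplp1 had 576 CPM in NK and 731 CPM in ILC2, against 224 and 327 CPM in the MNK-3 pair. Rplp2 had 672 CPM in NK and 767 CPM in ILC2, against 323 and 478 CPM in the MNK-3 pair. For all 3 genes both MNK-3 libraries lay below NK and NK below ILC2, and the step from NK to ILC2 was larger for Rplp0 than for its partners. Rpl5 and Rpl11, which with the 5S RNA form the particle that can bind and inhibit MDM2, had 226 and 114 CPM in NK, 285 and 182 CPM in ILC2, and 150 to 191 CPM (Rpl5) and 94.6 to 102 CPM (Rpl11) in MNK-3.

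Rpsa, a small-subunit protein also known as a laminin receptor precursor, had 613 CPM in NK and 850 CPM in ILC2, against 217 and 307 CPM in the MNK-3 pair. Rps6, the substrate of the S6 kinases, had 217 CPM in NK and 341 CPM in ILC2, against 133 and 162 CPM in the MNK-3 pair. Rps19, the gene most often mutated in Diamond-Blackfan anaemia, had 139 CPM in NK and 327 CPM in ILC2, against 133 and 136 CPM in the MNK-3 pair, so that NK and MNK-3 differed little for it. Over 15 Diamond-Blackfan genes, all 15 lay lower in MNK-3 than in ILC2, with a median log2 ratio of -1.26. Against NK, 13 lay lower in MNK-3, with a median of -0.29. Over all 86 members the counts were 80 and 74, with medians of -1.47 and -0.55, so the subset was shifted less than the family. Rpl13a, known for a role outside the ribosome in translational silencing, had 82.8 CPM in NK and 165 CPM in ILC2, against 64.1 and 75.6 CPM in the MNK-3 pair. Rpl38, linked to translation of Hox mRNAs, had 151, 180, 78.8 and 103 CPM in NK, ILC2 and MNK-3 replicates 1 and 2. For each of these 5 genes both MNK-3 libraries lay below both primary libraries. Rps27a, made as a fusion with ubiquitin, had 142 CPM in NK and 234 CPM in ILC2, against 93.6 and 115 CPM in the MNK-3 pair. Rps4x, the X-linked form of a small-subunit protein, had 281, 498, 150 and 216 CPM. Rpl3, near the peptidyl transferase centre, had 435, 775, 240 and 321 CPM, and Rpl10, which joins late in the assembly of the large subunit, had 202, 309, 109 and 156 CPM. The order of cell types was the same for all of these genes. Rpl41, the smallest member, had 175 CPM in NK and 326 CPM in ILC2, against 111 and 129 CPM in the MNK-3 pair.

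To compare groups, libraries were scaled by trimmed means of M values (TMM), and log2 ratios were taken of the scaled CPM plus 0.5, with the mean of both MNK-3 libraries. MNK-3 against NK, the question of how the line compares with a primary group 1 cell, gave a median log2 ratio of -0.55 over the 86 genes, with 74 below 0. The median was 0.68 over all 25283 genes tested and 0.01 over the 2597 genes at 100 CPM or more, which are the better match in level. With MNK-3 replicate 1 alone the family's median was -1.12, and with replicate 2 alone it was -0.14. Genes at 100 CPM or more shifted alike, to -0.53 and 0.38, so that relative to their median the family lay at -0.59 with replicate 1 and -0.52 with replicate 2. A level 2-fold or more lower was seen in 10 of the 86 members, against 7.16% of all genes tested. Among genes at 100 CPM or more it was seen in 452 of 2597, a larger share than among the members. Among the canonical members 71 of 77 lay below 0, and the other 6 were Rpl15, Rpl24, Rpl28, Rpl31, Rpl35 and Rps29. The pooled range ran from Rpl34 at -2.32 to Rpl24 at 3.74.

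The large subunit (median -0.58) and the small subunit (-0.52) differed little in this comparison, while the stalk had a median of -0.71 and the 9 paralogs and other symbols 0.46.

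MNK-3 against ILC2 gave a median log2 ratio of -1.47 over the 86 genes, with 80 below 0. The median was 0.78 over all genes tested and -0.32 over genes at 100 CPM or more. With replicate 1 alone the family's median was -2.04, and with replicate 2 alone it was -1.06. Relative to the median of genes at 100 CPM or more, which moved from -0.87 to 0.05, these values were -1.17 and -1.12. A level 2-fold or more lower was seen in 76 of the 86 members, against 8.55% of all genes tested. Among genes at 100 CPM or more it was seen in 653 of 2597. The range over the members ran from Rps2 at -3.78 to Rpl24 at 2.34. Rpl24 was the single canonical member of 77 above 0. The medians were -1.47 for the large subunit, -1.48 for the small subunit, -1.71 for the stalk and 0.09 for the paralogs and other symbols.

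ILC2 against NK gave a median log2 ratio of 0.94, with 81 of the 86 genes above 0, against -0.05 over all genes tested and 0.33 over genes at 100 CPM or more. A level 2-fold or more higher was seen in 37 of the 86 members, against 15.2% of all genes tested. Among genes at 100 CPM or more it was seen in 715 of 2597. The range over the members ran from Rpl3l at -1.20, which rests on 6 and 2 reads, to Rps27l at 2.58. Rps27, at -0.21, was the single canonical member of 77 below 0. Scaled by library totals, the median of the family was -0.56, -1.13 and 0.60 in the 3 comparisons, that of all genes tested 0.88, 1.12 and -0.26, and that of genes at 100 CPM or more 0.01, 0.02 and -0.01.

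No member passed the test across all genes. In limma voom, with Benjamini-Hochberg adjustment over 25283 genes and a threshold of 0.05, 0 of 86 members were called in MNK-3 against NK (0.522% of all genes), 0 in MNK-3 against ILC2 (0.34% of all genes) and 0 in ILC2 against NK (0.0% of all genes). At an unadjusted p under 0.05 in limma voom there were 2, 8 and 0 members, against 883, 905 and 587 of all 25283 genes tested. The lowest adjusted p of limma voom was that of Rpl29 in both MNK-3 comparisons, 0.504 against NK (log2 fold change -2.26, SE 0.85) and 0.173 against ILC2 (-3.14, SE 0.96). Scaled by library totals, limma voom called 11 members lower in MNK-3 than in NK (2.04% of all genes), 57 lower in MNK-3 than in ILC2 (2.37% of all genes) and 4 higher in ILC2 than in NK (0.479% of all genes). With factors from abundant genes it called 1 member lower in MNK-3 than in NK (0.218% of all genes) and 17 lower in MNK-3 than in ILC2 (0.597% of all genes). These p-values rest on the difference between the MNK-3 libraries alone, which may be technical, and NK and ILC2 are taken to vary as much.

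The make-up of the family was then compared free of library scaling, as the log2 level of each member minus the median of the 86 members in the same library. The MNK-3 libraries agreed closely on this measure: the SD of their difference over the 77 canonical members was 0.22, and 74 of the 77 lay within 0.5 of each other. Across the canonical members, which are not independent replicates, Pearson r was 0.99 between the MNK-3 libraries, 0.95 between NK and ILC2, and 0.82 to 0.84 between MNK-3 and the primary cells. By rank the gap was smaller, with Spearman rho at 0.99, 0.92 and 0.86 to 0.88 in the same order. Gene lengths are the same in every library, so high values are built in. MNK-3 was counted over another gene set than NK and ILC2, so gene set and cell type cannot be told apart in the lower values. Differences of 1 or more on this log2 scale were found for 10 members between MNK-3 and NK, 9 between MNK-3 and ILC2, and 5 between ILC2 and NK. With either MNK-3 library left out, 8 of the 10 and 8 of the 9 stayed at 1 or more. Against ILC2 these included Rpl10l and Rpl3l, at 1.26 and 1.05 with replicate 2 alone. Both had at most a few reads in ILC2 and in replicate 2. Their values there depend on the 0.5 CPM added before taking logs and do not show that a difference held. Against NK, Rps2 lay at -0.98 with replicate 1 alone and Rpl10l at 0.68 with replicate 2 alone, and against ILC2, Rpl34 lay at -0.97 with replicate 1 alone. Against NK the 6 higher members were Rpl24, Rpl7l1, Rpl10l, Rpl39l, Rps27l and Rps19bp1, and the 4 lower were Rps2, Rps23, Rpl29 and Rpl34, all canonical. Against ILC2 the lower members were Rps2, Rpl29 and Rpl34.

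**Figure D3:**
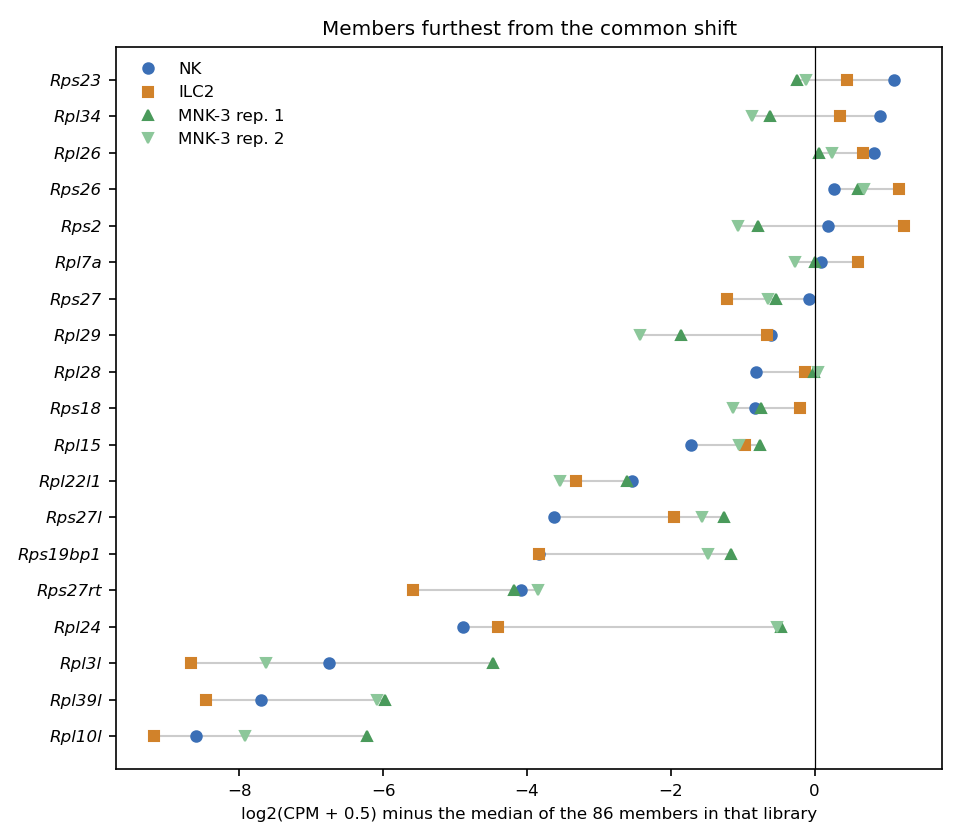
Level of 19 members relative to the median of the 86 members in the same library (horizontal axis, log2), one row per gene. The MNK-3 points lie close together and away from NK and ILC2 for Rpl24, Rps19bp1, Rpl34, Rpl29 and Rps2, while Rpl3l and Rpl10l are spread between the MNK-3 libraries.

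Rpl24 (chr16:55966275-55971435, plus strand), a large-subunit protein at the bridge between subunits, stood furthest out. It had 28 reads in NK (6.04 CPM) and 123 in ILC2 (13.2 CPM), but 2032 and 1438 in MNK-3 (79.3 and 94.7 CPM). Relative to the family median it lay at -4.89 and -4.41 in NK and ILC2, and at -0.46 and -0.53 in MNK-3. The test of limma voom gave a log2 fold change of 3.84 (SE 2.18, unadjusted p = 0.0785, adjusted p = 1.0) against NK and 2.38 (SE 1.07, unadjusted p = 0.0265, adjusted p = 1.0) against ILC2. In GENCODE M21, 484 of the 1030 exonic bases of Rpl24 (47.0%) also belong to Gm28037, a processed transcript on the same strand, which was counted in the NK and ILC2 tables alone, with 0 and 1 reads. Reads that fall on genes sharing a stretch may be left uncounted, and the part of this overlap in the difference was not tested. Only 0.686% of the 38-base words in its coding sequence were unique, so its counts are uncertain for that reason too.

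Of the 86 members, 26 overlapped a gene listed for NK and ILC2 alone, and 24 of these overlapped a snoRNA, by at most 156 bases. Rpl24 had the largest such overlap by share of its exons. The next was Rpl30, named here after its values were seen, with 616 of 3020 exonic bases (20.4%) shared with an unclassified transcript on the other strand, which had 8 reads in NK and 3 in ILC2. Genes listed in all tables overlapped 19 members, most of all Rpl35 (66.2% of its exonic bases, with Wdr38) and Rpl23a (59.7%, with Tlcd1), both on the other strand. The strand setting of the counting is not given in the sources used here, so reads of such pairs cannot be told apart.

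Relative to the family, 4 canonical members lay at least 1 lower in MNK-3 than in NK: Rpl34 (-1.64), Rpl29 (-1.54), Rps23 (-1.29) and Rps2 (-1.11). Rps2 (chr17:24718116-24721929, plus strand), at the mRNA entry channel, had 220 CPM in NK and 692 CPM in ILC2, against 63.1 and 65.4 CPM in the MNK-3 pair. Its level relative to the family was 0.19 in NK, 1.25 in ILC2, and -0.79 and -1.06 in MNK-3, so that the MNK-3 libraries lay close together and below both primary libraries. Its log2 fold change between MNK-3 and ILC2 was -3.78 (SE 1.19, unadjusted p = 0.00146, adjusted p of limma voom 0.204).

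Rpl29 (chr9:106429454-106431568, plus strand), a surface protein of the large subunit, had 127 CPM in NK and 184 CPM in ILC2, against 29.8 and 25.04 CPM in the MNK-3 pair. Rpl34 (chr3:130726831-130730398, minus strand), also of the large subunit, had 362 CPM in NK and 372 CPM in ILC2, against 71.4 and 74.8 CPM in the MNK-3 pair. NK and ILC2 lay close together for Rpl34 and both MNK-3 libraries well below them, with a log2 fold change against NK of -2.31 (SE 1.00, unadjusted p = 0.0204, adjusted p of limma voom 0.901). Rps23 (chr13:90922958-90924950, plus strand), a decoding-centre protein that takes part in reading accuracy, had 419 CPM in NK and 398 CPM in ILC2, against 92.7 and 126 CPM in the MNK-3 pair. It was 1 of 7 members with a higher CPM in NK than in ILC2. None of the coding words of Rps23 was unique, 20.2% of those of Rpl34 were, and the share was 2.47% for Rpl29 and 16.5% for Rps2.

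Rps26, a small-subunit protein at the mRNA exit, was highest in ILC2. It had 234 CPM in NK and 658 CPM in ILC2, against 167 and 221 CPM in the MNK-3 pair, and its level relative to the family was 0.90 higher in ILC2 than in NK. Rpl15 and Rpl28, of the large subunit, lay 0.75 and 0.67 higher in ILC2 than in NK on the same scale. For both genes the MNK-3 pair lay nearer to ILC2 than to NK on that scale. Rpl15 had 58.4 CPM in NK and 148 CPM in ILC2, against 64.2 and 65.8 CPM in the MNK-3 pair. The family median was 194 CPM in NK and 291 CPM in ILC2, against 110 and 137 CPM in the MNK-3 pair. Rpl26, at the tunnel exit, differed by -0.67 between MNK-3 and NK relative to the family, with 343 CPM in NK and 463 CPM in ILC2, against 115 and 162 CPM in the MNK-3 pair. Between MNK-3 and ILC2, Rps18 and Rpl7a differed by -0.74 and -0.73 relative to the family. Rps18 had 109 CPM in NK and 253 CPM in ILC2, against 65.3 and 62.1 CPM in the MNK-3 pair, and Rpl7a had 206, 440, 110 and 114 CPM.

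Copies of these genes bear on the counts, since reads of 38 bases that match several places may be dropped, and genes with copies may then read low. The tables' entry for reads not aligned uniquely is 0 in every library, and how such reads were handled before counting is not given in the sources used here. The coding sequence of each member was cut into all words of 38 bases, and each word was looked up in the GENCODE M21 transcripts of genes at other places. In 30 of the 86 members no word was unique, in 48 fewer than 10% were, and in 12 at least 50% were. The median was 7.72%, whereas in 48 of the 78 mitochondrial ribosomal protein genes every word was unique. Untranslated regions also take reads and were not searched, nor were copies outside the annotation.

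The words with the most copies are printed to show what a 38-base read from such a gene looks like, with coding position counted from the A of the start codon, in GENCODE M21.
Rpl7a (coding bases 430 to 467, in 61 other genes): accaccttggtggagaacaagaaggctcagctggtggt
Rpl21 (coding bases 97 to 134, in 56 other genes): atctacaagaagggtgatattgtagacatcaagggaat
Rpl29 (coding bases 141 to 178, in 45 other genes): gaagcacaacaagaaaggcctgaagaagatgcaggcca
Rps2 (coding bases 584 to 621, in 41 other genes): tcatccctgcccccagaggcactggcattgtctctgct
Counting any shared word, Rpl7a shared coding sequence with 148 other genes, Rpl29 with 104, Rpl21 with 98 and Rps2 with 87, nearly all annotated pseudogenes. Of these, Rpl29 and Rps2 lay at least 1 from the family between MNK-3 and the primary cells, and Rpl21 and Rpl7a did not. Named pseudogenes, those with a parent gene's symbol followed by -ps, were counted mostly in the NK and ILC2 tables. There, the 10 named for Rps2 took 67 reads in NK and 86 in ILC2 beside 1022 and 6438 for Rps2 itself. The 3 named for Rpl29 took 11 and 13 beside 589 and 1707. By annotation 86 pseudogenes share a word with Rps2 and 101 with Rpl29. Reads of those under other names were not summed, so these counts cover a part of the copies only. The part of such copies in the differences was not tested.

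Members with no unique word had the lowest median level per length in every library and those at 50% or more the highest. For the 77 canonical genes the median in NK was 72.8 CPM per kb over 29 genes with no unique word, 114 over 18 genes under 10%, 116 over 24 genes from 10% to under 50%, and 196 over 6 genes at 50% or more. In MNK-3 replicate 2 the same medians were 58.5, 84.4, 74.6 and 156 CPM per kb. The classes between these ends were not in 1 order across libraries. Spearman rho between the unique share and the level per length was 0.31 to 0.38 in the 4 libraries over the 77 genes, as a description of genes that share libraries and annotation. The 6 canonical genes with at least 50% unique words included Rpl4, Rpl8, Rpl22, Rpl41 and Rps3. The median log2 ratios of the 6 were -0.51 for MNK-3 against NK, -1.67 for MNK-3 against ILC2 and 1.07 for ILC2 against NK, beside -0.55, -1.47 and 0.94 for all 86. This subset was chosen after the data were seen.

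**Figure D4:**
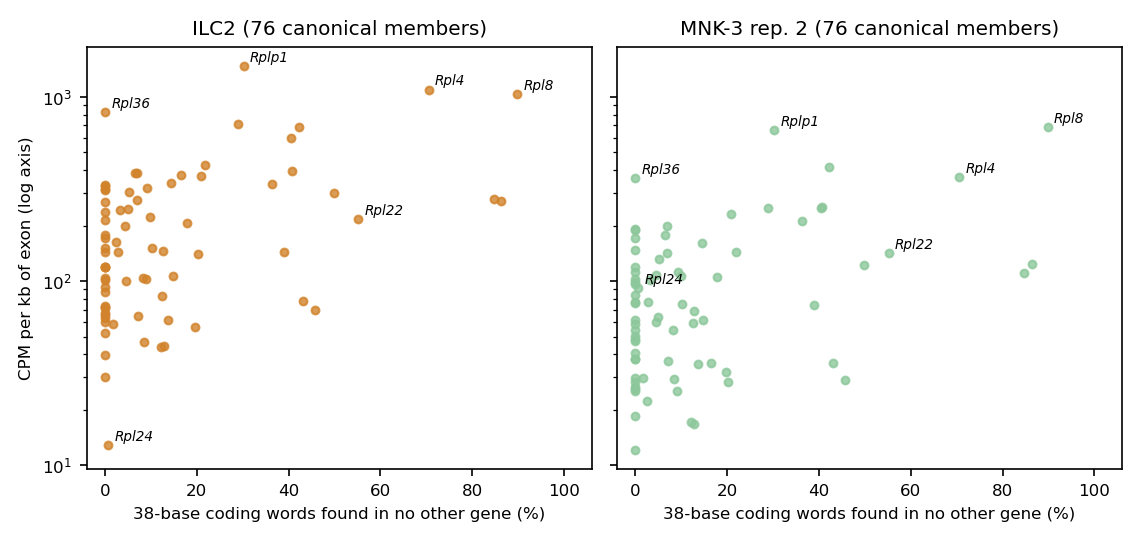
Level per kilobase of exon (vertical, log axis) against the share of 38-base coding words found in no other annotated gene (horizontal) for 76 of the 77 canonical members, in ILC2 (left) and MNK-3 replicate 2 (right). Genes with no unique word spread widely, the 5 plotted genes at 50% or more all lie at 110 CPM per kb or above, and Rpl24 is the lowest point in ILC2 only.

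Several paralogs can replace a canonical protein in the ribosomes of some tissues. The shares below are of counted reads, with no correction for length or unique sequence, so they are not shares of a pair's mRNA. Unique coding words made up 0% in Rps27 and 65.8% in Rps27l, and 55.1% in Rpl22 and 13.0% in Rpl22l1. They made up 14.4% in Rpl7 and 59.5% in Rpl7l1, and 0% in Rpl36a and 13.4% in Rpl36al. Rps27l, which is induced by p53, took 7.73% of the reads of the Rps27 and Rps27l pair in NK (exact interval 6.08% to 9.65%), 37.4% in ILC2 (35.1% to 39.6%), and 37.7% (36.0% to 39.4%) and 34.4% (32.3% to 36.5%) in replicates 1 and 2 of MNK-3. NK stood apart from the other 3 libraries, whose intervals overlap each other. Rps27l had 15.3 CPM in NK and 74.3 CPM in ILC2, against 45.7 and 45.8 CPM in the MNK-3 pair, and Rps27 had 183, 125, 75.5 and 87.3 CPM. Rps27 was 1 of the 7 members higher in NK than in ILC2. For Rps27l in ILC2 against NK, limma voom gave a log2 fold change of 2.61 (SE 1.42, unadjusted p = 0.0659, adjusted p = 1.0).

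Whether reads can tell these genes apart is seen in their coding sequence, shown for the first 75 bases with the bases that differ from Rps27 in capitals.
Rps27: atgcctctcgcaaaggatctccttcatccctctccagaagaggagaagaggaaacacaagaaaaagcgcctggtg
Rps27rt: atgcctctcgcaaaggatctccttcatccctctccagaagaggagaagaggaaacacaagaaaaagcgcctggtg
Rps27l: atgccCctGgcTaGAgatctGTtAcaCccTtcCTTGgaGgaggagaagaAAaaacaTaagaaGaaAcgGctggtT
Rps27l differed at 22 of these 75 bases. Rps27rt had the same coding sequence as Rps27 over all 255 bases, so reads there cannot be assigned to either, and its 11.0, 5.59, 5.58 and 9.09 CPM in NK, ILC2 and both MNK-3 libraries are uncertain.

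Rpl22l1 can take the place of Rpl22, a protein with a known role in T cell development. Its share of the pair's reads was 7.31% in NK (6.23% to 8.51%), 4.34% in ILC2 (3.84% to 4.88%), and 5.74% (5.23% to 6.27%) and 2.68% (2.30% to 3.11%) in MNK-3. The MNK-3 libraries differed from each other by more than counting error, and their range spans the ILC2 value. Rpl7l1, a factor of ribosome assembly, took 8.79% of the reads it shares with Rpl7 in NK (7.79% to 9.86%), 11.7% in ILC2 (11.1% to 12.4%), and 19.9% (19.1% to 20.7%) and 15.95% (15.1% to 16.8%) in MNK-3. Both MNK-3 libraries were above ILC2 and NK. Rpl36al took 19.8% of its pair with Rpl36a in NK, 15.04% in ILC2, and 28.0% and 17.03% in replicates 1 and 2 of MNK-3, so the line spans most of the range by itself.

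**Figure D5:**
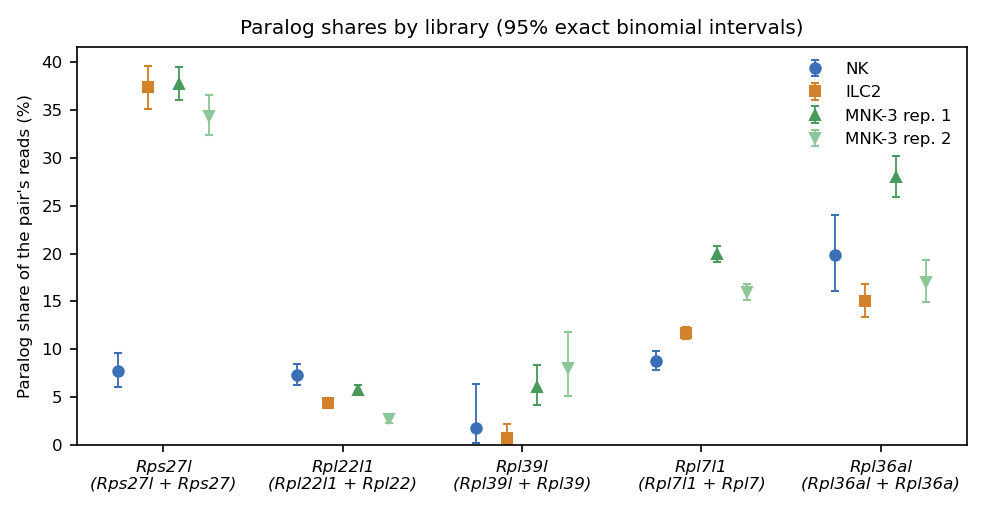
Share of the reads of a paralog and its canonical partner that fell on the paralog (vertical axis, percent) for 5 pairs in each library, with 95% exact binomial intervals of counting error. Rps27l is at 7.73% in NK and between 34.4% and 37.7% in the other libraries.

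Rpl39l, best known from male germ cells, was near the limit of detection in the primary cells. It had 2 reads in NK and 3 in ILC2, against 32 and 23 in MNK-3, which is 1.82% (0.221% to 6.41%), 0.739% (0.153% to 2.14%), 6.03% (4.16% to 8.40%) and 8.01% (5.15% to 11.8%) of the pair with Rpl39. The intervals of both MNK-3 libraries lie above that of ILC2 and overlap that of NK. Its coding start differs from that of Rpl39 at 8 of 75 bases, and 91.6% of its words of 38 bases were unique, against 0% for Rpl39.
Rpl39: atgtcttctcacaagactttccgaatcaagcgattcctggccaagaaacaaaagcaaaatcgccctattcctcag
Rpl39l: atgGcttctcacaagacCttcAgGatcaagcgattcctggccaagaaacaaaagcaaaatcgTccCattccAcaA
Rpl3l, the muscle paralog of Rpl3, had 6 reads in NK and 2 in ILC2, and of the MNK-3 libraries replicate 1 had 114 and replicate 2 had 3, so its level in the line rests on replicate 1. Rpl10l, the germ cell paralog of Rpl10, had 0 reads in NK and ILC2, which allows up to 0.647 and 0.323 CPM, and 25 and 1 reads in MNK-3. Rps19bp1 had 13.2 CPM in NK and 20.004 CPM in ILC2, against 48.5 and 48.6 CPM in the MNK-3 pair, so that MNK-3 was highest and ILC2 stayed above NK, and it had no word in common with another gene.

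Other genes of translation were taken from lists and tested in the same fit, in which limma voom called 0 of them in any comparison. The counts at an unadjusted p under 0.05 were at most 2 per list and comparison. Over all 25283 genes tested they were 883 for MNK-3 against NK, 905 for MNK-3 against ILC2 and 587 for ILC2 against NK. The 19 TOP mRNAs that do not encode the 86 members had medians of -0.47 for MNK-3 against NK, -1.48 for MNK-3 against ILC2 and 0.96 for ILC2 against NK, close to the family's -0.55, -1.47 and 0.94. All 19 were lower in MNK-3 than in ILC2. Eef1a1, which brings tRNAs to the ribosome, had 2625 CPM in NK and 3146 CPM in ILC2, against 928 and 1400 CPM in the MNK-3 pair. Eef2, which moves the ribosome along the mRNA, had 2596 CPM in NK and 4734 CPM in ILC2, against 872 and 1243 CPM in the MNK-3 pair. Tpt1, a growth-related TOP mRNA, differed from the family in that NK was highest, at 1573 CPM against 1040 CPM in ILC2, and with 622 and 914 CPM in the MNK-3 pair.

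Rack1, a scaffold on the small subunit, had 749 CPM in NK and 1380 CPM in ILC2, against 461 and 642 CPM in the MNK-3 pair. Fau, whose product yields the ribosomal protein RPS30, fell outside the rule by symbol. It had 433 CPM in NK and 416 CPM in ILC2, against 218 and 315 CPM in the MNK-3 pair. Nap1l1, a histone chaperone and TOP mRNA, was the other way round against NK, with 118 CPM in NK and 493 CPM in ILC2, against 242 and 331 CPM in the MNK-3 pair.

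The 35 initiation factors had medians of 0.27 for MNK-3 against NK and -0.80 for MNK-3 against ILC2, and 1.11 for ILC2 against NK. Among them Eif4g2, a scaffold for initiation without cap-binding eIF4E, had 1179 CPM in NK and 3427 CPM in ILC2, against 833 and 1190 CPM in the MNK-3 pair. The 78 mitochondrial ribosomal protein genes, whose products make the separate ribosome of the mitochondrion, had medians of 0.82 for MNK-3 against NK and 1.08 for ILC2 against NK. Against ILC2 their median in MNK-3 was -0.20 after TMM scaling and 0.15 by library totals, so its sign depends on the scaling. Their share of gene reads was 0.178% in NK, 0.295% in ILC2, and 0.316% and 0.295% in MNK-3. NK was thus the lowest for the mitochondrial ribosome and the line was the lowest for the cytosolic ribosome. The difference between the lists was not tested.

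The list of mTOR and translational control genes had medians of 0.66 for MNK-3 against NK, 0.30 for MNK-3 against ILC2 and 0.30 for ILC2 against NK, the last of which was -0.03 by library totals. Eif4ebp1, which holds back cap-dependent initiation, had 9.70 CPM in NK and 101 CPM in ILC2, against 19.8 and 15.4 CPM in the MNK-3 pair, and its adjusted p of limma voom was 0.157 for MNK-3 against ILC2. Larp1, which binds TOP mRNAs, had 234 CPM in NK and 590 CPM in ILC2, against 294 and 383 CPM in the MNK-3 pair. Mtor itself had 110 CPM in NK and 140 CPM in ILC2, against 209 and 231 CPM in the MNK-3 pair, an order unlike that of the family.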

How the data were processed

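The members and gene lists were chosen with earlier results of these data known. Per the labels' protocols, libraries were made from total RNA with a stranded low-input kit (SMARTer Pico v2), with 2 technical replicates per experiment, and read as pairs of 38 bases; each deposited table has a single column, and whether runs were pooled is not given in the sources used here. The submitters' processing notes name STAR 2.7.8a, HTSeq and GRCm38 (mm10); the strand setting and annotation are not given in the sources used here. The deposited values, recorded as other, are whole-number counts per gene. NK and ILC2 were counted over 53465 genes, MNK-3 over 31053, and the 30731 in all tables were used; genes outside them held 3.05%, 1.89%, 0.131% and 0.0399% of gene reads in NK, ILC2 and MNK-3 replicates 1 and 2. Entries that name no gene held 49.3%, 25.9%, 76.5% and 26.6% of reads and were left out.

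A filter at a count of 10 (adjusted for library depth) and a total count of 15 left 25283 genes and all 86 members. TMM factors (own code, trims 30% and 5%) were 1.04, 0.816, 1.39 and 0.852. The test was limma voom (limma 3.58.1, R 4.3.3), two-sided, with 4 libraries in 3 groups, 1 residual degree of freedom (the MNK-3 pair), and prior degrees of freedom estimated as infinite. It was also run on simulated counts with a single fixed spread and without the differences seen between the MNK-3 libraries. That run does not show how the test performs on these libraries. Named genes were the 5 highest and 5 lowest members of each comparison by log2 ratio and by level relative to the family, a set list of members by role, and, of other lists, the 2 highest and 2 lowest genes and a set list, of which a part is printed. Single genes left out of the text and plots are not reported here. Coordinates, transcripts and coding words came from GENCODE M21, and promoter windows from RefSeq on GRCm38.p6. Alternatives were other scaling, no filter, thinning to the shallowest library, other added values, fewer libraries, another denominator or reference, and, added after the data were seen, members with unique sequence and the level relative to the family with either MNK-3 library left out.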

Additional observations from a re-analysis of the deposited data

Results flagged for a closer look

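Named ribosomal protein pseudogenes, which belong to no comparison above because nearly all were counted in the NK and ILC2 tables alone, held reads above the limit that a count of 0 allows. There were 2398 such reads in NK, over 228 of 295 listed pseudogenes, and 4897 in ILC2, over 233 of 295. They came to 2.55% and 1.68% of the reads of the 86 members. The highest were Rpl14-ps1 with 113 reads in NK and Rpl36a-ps2 with 233 reads in ILC2. Only 9 of the 295 were listed for MNK-3.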

How the results depend on the processing

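Whether members were called by limma voom depended mostly on the scaling, and for Rps2 and Rpl29 also on the filter, the depth or the libraries in the fit. Against 0 in each comparison as reported, 11 members were called in MNK-3 against NK by library totals and 1 (Rpl4) with factors from abundant genes. With counts thinned to the shallowest library, 1 of 84 members tested (Rpl29) was called there, against 2.69% of all genes in either direction. In MNK-3 against ILC2 there were 57 by library totals and 17 with factors from abundant genes. Without the filter on low counts there was 1 (Rps2), against 0.442% of all genes in either direction. With thinned counts there were 2 of 84 (Rpl29 and Rps2), against 1.32% of all genes. With ILC2 and MNK-3 alone in the fit there was 1 (Rpl29), against 0.455% of all genes. In ILC2 against NK there were 4 by library totals. Size factors from medians of ratios called 0 in each comparison (1, 2 and 0 at an unadjusted p under 0.05). Calls with an MNK-3 library left out were not run, since no residual degree of freedom remains, and for the same reason ILC2 against NK was not fitted alone. The median log2 ratio kept its sign under each scaling, ranging without either MNK-3 replicate from -1.12 to -0.14 against NK and from -2.04 to -1.06 against ILC2, and genes at 100 CPM or more shifted with it. It reversed, to 0.060, in MNK-3 against NK over the 12 members with at least 50% unique words, 6 of which are paralogs or non-canonical symbols; over the 6 canonical ones it was -0.51. In all, 56 of the recomputed values kept their direction and call. NK, with 4637812 reads, limits the low-level paralogs. No paired analysis was possible because NK and ILC2 have 1 library each.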
